A study of Mus musculus with 8 samples.

Results

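The genes described here are 10 genes of the general and white adipocyte programs: Adipoq, Fabp4 and Cfd, which brown and white adipocytes share, Lep, Retn, Agt, Nnat and Nrip1, which are more active in white than in brown adipocytes, and Tmem26 and Tnfrsf9, which mark beige cells. They were named by symbol among 21000 genes with a curated RefSeq mRNA. Each gene was given the ATAC-seq summits that lay in its gene body or within 50 kb of one of its transcription start sites (TSS), called its locus, which took 68 of the 32173 summits. ATAC-seq uses a transposase that inserts adapters into DNA not covered by nucleosomes, so that reads gather where chromatin is open. BAT nuclei came from 2 WT and 2 Dot1L-BKO mice of 12 weeks, fed chow and kept at 4°C for 4 hr before tissue was taken. WT mice were littermates with floxed Dot1l alleles, and Dot1L-BKO mice had the same floxed alleles and the Ucp1-Cre transgene, so that the gene is deleted in Ucp1+ cells while other cells of the tissue keep it.

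The authors' deposited values are a single list of summits, the highest point of each peak, with the −log10 of the MACS2 q-value, called the score here. Its name sets WT against Dot1L-BKO, and the sources used here do not say which libraries the caller took as treatment and which, if any, as background. No library has values of its own, so that no genotype comparison, replicate error or test could be made, and the depth is unknown. The score tells how far a peak stood above the caller's background and is not a level of openness. Scores ran from 1.31, with a median of 5.0, a lower quartile of 3.05 and an upper quartile of 9.39, and many summits share a score, the most frequent being 4.16 at 1942 summits. In whole tissue, a site open in few nuclei and a site weakly open in many cannot be told apart.

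Adipocytes of all depots store triglyceride and carry a common set of genes under PPARγ and C/EBP factors. Adipoq encodes adiponectin, a hormone that sensitizes tissues to insulin, Fabp4 the fatty acid carrier aP2 of the cytosol, and Cfd adipsin, a secreted protease of the alternative complement pathway. White adipocytes also secrete leptin (Lep), the satiety hormone, resistin (Retn) and angiotensinogen (Agt), the precursor of the angiotensins. Nnat encodes neuronatin, a small membrane protein that is imprinted, and Nrip1 encodes RIP140, a nuclear receptor corepressor known for holding down thermogenic genes in white fat. Tmem26, a membrane protein, and Tnfrsf9, the costimulatory receptor CD137, are surface markers of beige cells, and Tnfrsf9 is also known from activated T cells.

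A promoter summit, that is one within 1 kb of a TSS, was found for 3 of 3 shared genes, for 2 of 5 white-selective genes (Agt and Nrip1) and for 0 of 2 beige-selective genes. Over all 10 genes the count was 5, against 45.2% of all 21000 genes, so that the whole set and the white-selective genes lay near the background. A promoter summit with a score of at least 10 was found for 2 of the 10 genes, Fabp4 and Nrip1, against 23.5% of all genes. The classes hold 3 and 5 genes that were picked by name, and their difference was not tested.

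The promoter summits are shown first, as the sites that lie at the genes' own starts. Each line gives the summit with 50 bp of the reference (GRCm38, which is mm10) on either side, 5′ to 3′ in the sense of the gene, and capitals mark matches to 15 short patterns of transcription factors that are spelled out further down. Adipoq (plus strand) is at chr16:23146384-23146484, Fabp4 (minus strand) at chr3:10208570-10208670, Cfd (plus strand) at chr10:79890762-79890862, Agt (minus strand) at chr8:124569658-124569758 and Nrip1 (minus strand) at chr16:76373276-76373376.
Adipoq: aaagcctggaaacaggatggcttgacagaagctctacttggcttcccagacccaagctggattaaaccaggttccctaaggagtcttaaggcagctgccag
Fabp4: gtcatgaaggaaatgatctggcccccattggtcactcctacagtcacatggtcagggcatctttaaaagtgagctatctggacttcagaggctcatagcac
Cfd: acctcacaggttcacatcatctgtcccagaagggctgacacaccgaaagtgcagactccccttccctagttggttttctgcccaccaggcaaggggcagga
Agt: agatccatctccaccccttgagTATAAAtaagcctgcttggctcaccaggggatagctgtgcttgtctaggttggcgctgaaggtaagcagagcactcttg
Nrip1: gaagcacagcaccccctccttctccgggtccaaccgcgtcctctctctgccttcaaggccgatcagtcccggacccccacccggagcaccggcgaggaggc
Among these windows, a match was found for Agt, whose TATA letters begin at -30 from the TSS. The windows of Adipoq, Fabp4, Cfd and Nrip1 held none of the patterns over this length. GC content ran from 48.5% for Fabp4 to 69.3% for Nrip1.

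Fabp4 had the strongest promoter summit of the 10 genes. The gene spans chr3:10204342-10208616 (minus strand), and its promoter summit at 10208620 was 4 bp upstream of the TSS. The score of 35.0 ranked 1192 of 32173 and was above that of 89.0% of the genes with a promoter summit, whose median was 10.7. Adipoq (chr16:23146536-23157968, plus strand) had its summit at 23146434, 102 bp upstream of the TSS, with a score of 6.02, above 25.9% of those genes. Cfd (chr10:79890853-79892655, plus strand) had one at 79890812, 41 bp upstream, with a score of 2.09, above 1.2% of them. The shared genes thus had promoter scores from near the bottom to near the top of the list. With a score of at least 5 the summit of Cfd was no longer counted, and with a score of at least 10 Fabp4 alone among the shared genes kept one.

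Among the white-selective genes, Nrip1 had the highest promoter score, above those of Adipoq and Cfd. The gene spans chr16:76287403-76373827 (minus strand), with TSSs at 76373827 and 76373049. Its summit at 76373326 was 277 bp upstream of the latter and in an intron of the transcript from the former, with a score of 16.7, above 66.5% of genes with a promoter summit. Agt (chr8:124556587-124569706, minus strand) had a summit 2 bp upstream of its TSS, at 124569708, with a score of 2.80, above 5.26% of them and higher than that of Cfd. Lep, Retn and Nnat had no promoter summit. From their TSSs the nearest summit was 27944 bp away for Lep, 9792 bp for Retn and 6546 bp for Nnat. The absence of a summit means that no peak passed the authors' thresholds in this list, and a weaker one was not detectable. If either genotype served as the caller's background, a promoter open in both could also lack a summit. Absence therefore need not mean a weaker peak.

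The promoters of Lep, Retn and Nnat are shown because no summit lay there. They are RefSeq sequences of GRCm38.p6 from 250 bases before to 50 after the TSS, all on the plus strand, with the same patterns in capitals. Lep is at chr6:29059971-29060270, Retn at chr8:3655520-3655819 and Nnat at chr2:157559828-157560127, and 9 of the 10 genes matched this table, all but Fabp4.
Lep: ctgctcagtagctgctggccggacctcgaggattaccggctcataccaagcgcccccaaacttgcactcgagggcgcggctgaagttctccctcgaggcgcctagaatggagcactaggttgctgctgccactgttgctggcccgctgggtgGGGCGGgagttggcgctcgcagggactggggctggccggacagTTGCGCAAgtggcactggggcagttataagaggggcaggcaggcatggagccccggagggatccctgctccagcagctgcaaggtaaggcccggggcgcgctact
Retn: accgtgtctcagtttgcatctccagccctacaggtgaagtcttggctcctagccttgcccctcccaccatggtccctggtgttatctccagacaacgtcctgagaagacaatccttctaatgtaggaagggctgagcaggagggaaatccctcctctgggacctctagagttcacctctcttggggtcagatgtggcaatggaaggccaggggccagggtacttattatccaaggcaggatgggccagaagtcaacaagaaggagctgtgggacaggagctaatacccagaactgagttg
Nnat: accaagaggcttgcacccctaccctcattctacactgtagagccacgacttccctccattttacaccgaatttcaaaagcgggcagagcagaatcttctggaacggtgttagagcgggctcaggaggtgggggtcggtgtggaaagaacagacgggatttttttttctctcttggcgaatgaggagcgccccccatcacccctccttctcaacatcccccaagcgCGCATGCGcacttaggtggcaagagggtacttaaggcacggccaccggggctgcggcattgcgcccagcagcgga
The Lep promoter held the C/EBP letters at -55 from the TSS and the SP/KLF letters at -98, the Nnat promoter held the NRF1 letters at -25, and the Retn promoter held none. Over 32851 RefSeq promoters of this length, the C/EBP letters were in 10.8%, the SP/KLF letters in 35.7% and the NRF1 letters in 8.21%. Such matches are letters and do not show that a factor was bound. GC content was 66% for Lep, 54.0% for Retn and 57.3% for Nnat. Promoter summits are more frequent at GC-rich promoters, so that the background differs between these genes. Of 2182 genes with a promoter GC content of 65% to 70%, as for Lep, 73.0% had a promoter summit. Of 2382 genes at 50% to 55%, as for Retn, Adipoq and Agt, 36.2% had one, and of 2736 genes at 55% to 60%, as for Nnat and Cfd, 53.9% had one. Lep and, by a narrow margin, Nnat thus lacked a promoter summit in GC ranges where most genes had one. Adipoq and Agt had one in a range where most did not. Retn, without a summit, and Cfd, with one, went with most genes of their ranges. So did Nrip1, with a summit in the range of 70% to 75%, where 69.9% of genes had one.

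**Figure D1:**
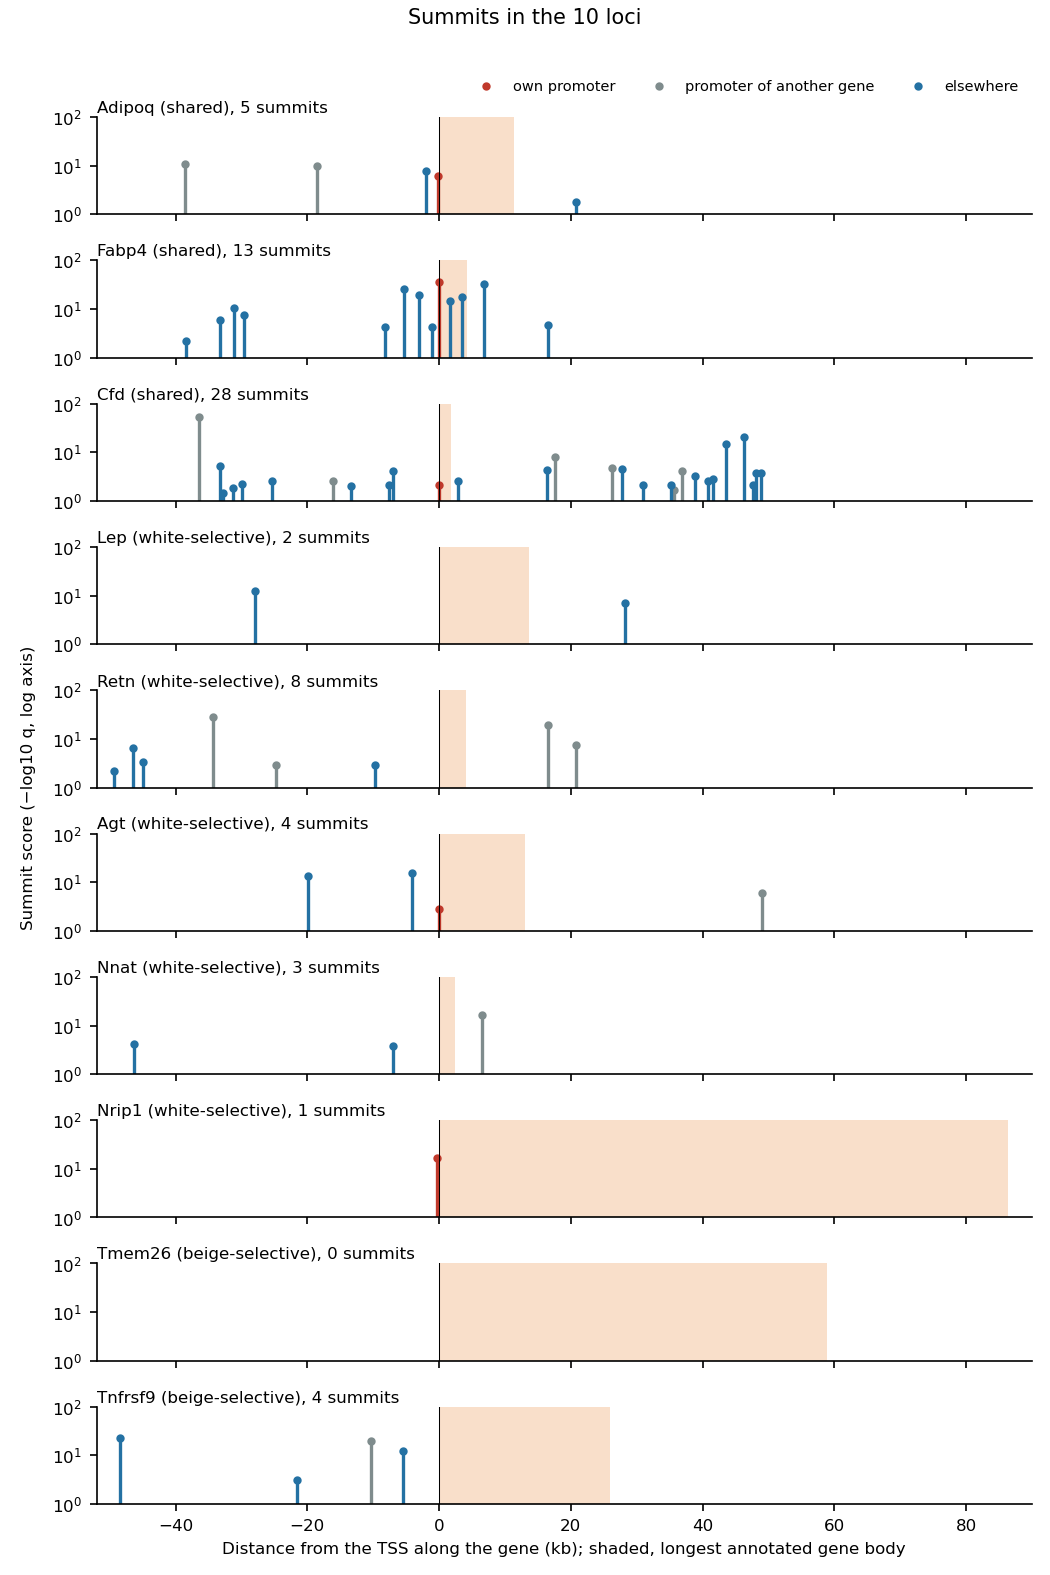
Summits in the 10 loci, by distance from the nearest TSS of the gene (x axis, kb along the gene) and score (y axis, −log10 q on a log axis). Red marks the gene's own promoter, grey the promoter of another gene, blue all other places, and shading the gene body drawn from the TSS. Fabp4 has 8 summits within 10 kb of its TSS, Lep has none, and the locus of Tmem26 is empty.

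Of the 10 genes, Fabp4 had the most summits around its TSS. It had 8 summits within 10 kb, from 6766 bp downstream to 8145 bp upstream of the TSS, over a span of 14911 bp. At least as many were found at 372 of 21000 genes (1.77%). Over 14 further general adipocyte genes the count within 10 kb ran from 3 (Pparg and Cd36) to 17 (Acsl1) with a median of 7.5, and over 10 brown-selective genes the median was 4.0. Of the 8, 6 had a score of at least 10. In order along the gene, the scores were 4.16 at 8145 bp upstream, 25.4 at 5259 bp, 19.4 at 3013 bp, 4.16 at 1079 bp, 35.0 at the promoter, and, downstream, 14.7 at 1721 bp, 17.4 at 3499 bp and 33.3 at 6766 bp. The summits at 1721 and 3499 bp lay in introns of Fabp4, and the one at 6766 bp lay past its 3′ end, 4567 bp upstream of the TSS of Fabp9, a testis member of the family. Beyond this group there was no summit over 21431 bp, and then 4 further ones from 29576 to 38479 bp upstream, with scores of 2.15 to 10.4. On the other side a single summit lay 16459 bp downstream of the TSS, with a score of 4.61.

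The highest of the upstream summits of Fabp4, at 10213875, is shown because an adipose enhancer bound by PPARγ and RXR is known several kilobases upstream of this gene. The downstream summit between Fabp4 and Fabp9, at 10201850, is shown because its score was next to that of the promoter. Both were chosen after the values were seen. The windows are chr3:10213775-10213975 and chr3:10201750-10201950, minus strand, with capitals as above.
Fabp4 upstream: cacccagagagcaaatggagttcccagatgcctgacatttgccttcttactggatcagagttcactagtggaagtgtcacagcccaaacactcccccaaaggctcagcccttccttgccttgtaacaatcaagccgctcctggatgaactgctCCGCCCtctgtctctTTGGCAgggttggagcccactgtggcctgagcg
Fabp4 downstream: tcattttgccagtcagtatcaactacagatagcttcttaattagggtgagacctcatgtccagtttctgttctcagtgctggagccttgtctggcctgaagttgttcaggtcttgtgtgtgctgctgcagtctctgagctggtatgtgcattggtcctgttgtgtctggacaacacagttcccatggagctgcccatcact
The upstream window held the SP/KLF letters and the half-site of NFI, and the downstream window held none of the patterns. A complete direct repeat of the nuclear receptor half-site with 1 base between (DR1) was not in the upstream window, and its best match had 3 mismatches in 12 letters, as did or bettered 21.9% of all summits. Whether the upstream window is the known enhancer was not tested.

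Adipoq and Cfd had fewer summits near the TSS than Fabp4. Adipoq had 2 within 10 kb, at 1961 bp upstream with a score of 7.58 and at the promoter with 6.02, so that the upstream summit scored above the promoter. A further summit lay 20849 bp downstream of the TSS, past the gene, with a score of 1.83. Cfd had 4 within 10 kb, with scores of 2.15 to 4.16 at the 2 upstream ones near Elane, 2.09 at the promoter and 2.53 at 2807 bp downstream, past its 3′ end. Adipoq exceeded 73.8% of all genes in summits within 10 kb, Cfd 90.6% and Fabp4 98.2%.

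The white-selective genes had 0 to 2 summits within 10 kb, and the shared genes 2 to 8. Lep had 0, Retn and Nrip1 had 1 each, and Agt and Nnat had 2 each, against a median of 1.0 over all genes. The classes meet at 2 summits, the count of Adipoq, Agt and Nnat. Agt had its second summit 4124 bp upstream, at 124573830, with a score of 15.4, which was higher than the 2.80 at its promoter, and this summit lay nearer to the TSS of Capn9 (2281 bp). For Nnat, the 2 summits lay 7069 bp upstream with a score of 3.75 and 6546 bp downstream with a score of 16.1. The latter was 263 bp upstream of the TSS of Blcap, the gene on the other strand within which Nnat lies.

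**Figure D2:**
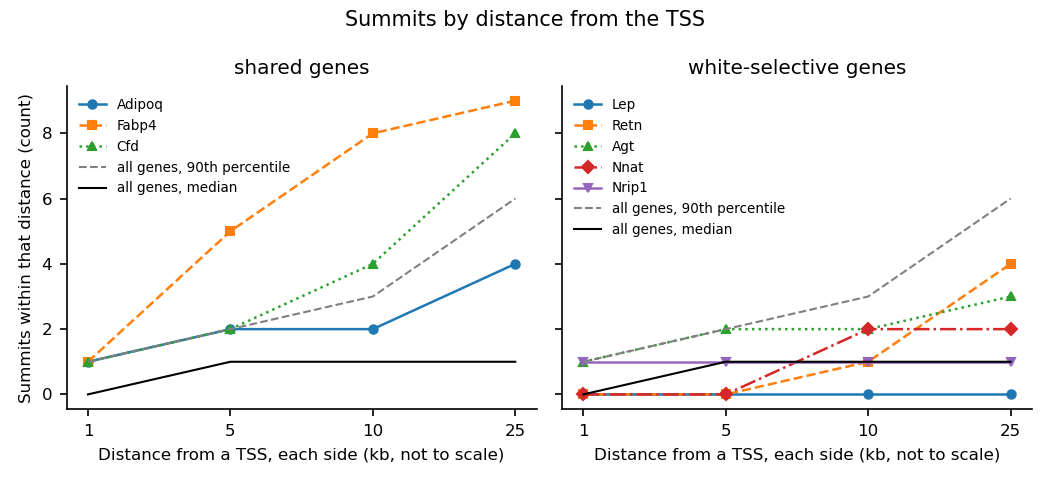
Number of summits (y axis) within 1, 5, 10 and 25 kb of a TSS (x axis, not to scale) for the shared genes on the left and the white-selective genes on the right. Black lines give the median and dashed grey lines the 90th percentile of all genes, which at 10 kb are 1.0 and 3.0. Fabp4 and Cfd lie above the latter there, while Adipoq and the white-selective genes lie below it.

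In the full loci, the shared genes had more summits by their median. Adipoq had 5, Fabp4 13 and Cfd 28, a median of 13, and Lep had 2, Retn 8, Agt 4, Nnat 3 and Nrip1 1, a median of 3.0. Tnfrsf9 had 4 and Tmem26 0. Over all genes the median was 2.0, with quartiles of 0 and 5.0, and 72.5% had at least 1 summit in the locus, against 9 of the 10 genes here. The classes overlap, since Retn had more than Adipoq. Fabp4 exceeded 91.6% of all genes and Cfd 98.9%, while Nrip1 exceeded 27.5%.

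The number of summits in a locus also moves with the number of genes in it. Cfd and Retn both had 8 other genes with a TSS in the locus, Lep, Nrip1 and Tmem26 had none, and the others had 1 to 3. Among the 248 genes with 8 neighbours the median was 14 summits with quartiles of 9 and 20, so that Cfd with 28 exceeded 89.1% of them and Retn with 8 exceeded 19.4%. Among the 2313 genes with 3 neighbours the median was 3.0, and Fabp4 exceeded 91.0% of these. Lep with 2 summits exceeded 68.3% of the 5791 genes without a neighbour, and Adipoq with 5 exceeded 75.5% of the 3541 genes with 2 neighbours. Against genes with as many neighbours, the 3 shared genes thus lay above the upper quartile, and so did Tnfrsf9, whose 4 summits exceeded 79.4% of the 4721 genes with 1 neighbour. Lep, Agt and Nnat lay on the upper quartile of their peers, and Nrip1 and Retn lay below it.

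**Figure D3:**
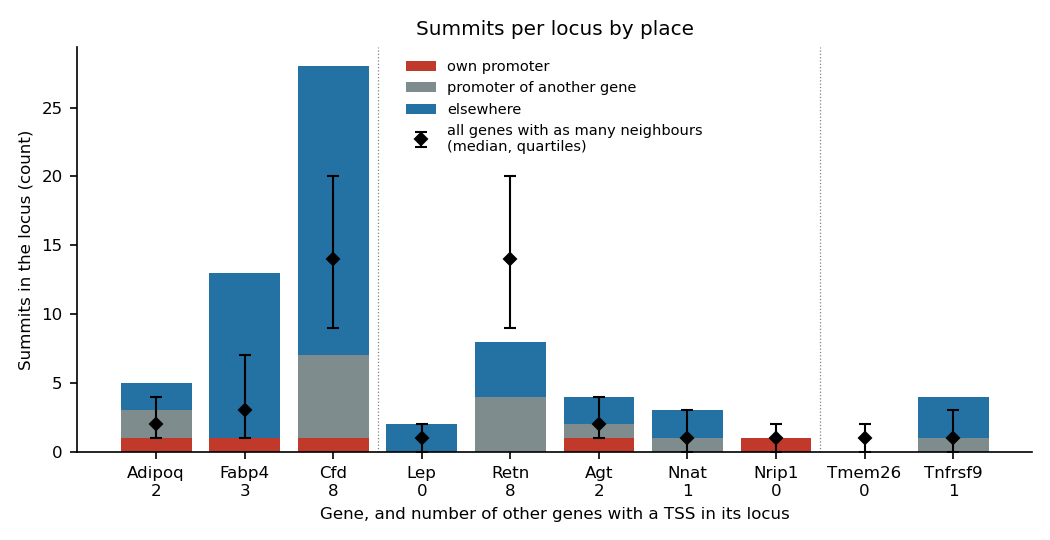
Summits in each locus (y axis, count) for the 10 genes, with the number of other genes with a TSS in the locus under each name. Colours give the place of the summits, and diamonds with bars give the median and quartiles of all genes with as many neighbours, which Adipoq, Fabp4, Cfd and Tnfrsf9 exceed and below which Retn falls. Lep, Agt and Nnat lie on the upper quartile.

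Many of the summits belong to neighbours by position. Of the 68 summits, 5 lay at the promoter of the gene itself, 15 (22.1%) at the promoter of another gene and 48 elsewhere, and 19 (27.9%) had the gene's own TSS as the nearest one. The gene bodies held 3 summits in all, 2 in Fabp4 and 1 in Nrip1. The highest summit of the locus lay at the promoter of another gene for 4 of the 7 genes with a neighbour and a summit, against 48.3% of such genes overall. These were Eif4a2 (score 10.6), a translation initiation factor, near Adipoq, Ptbp1 (53.8), a splicing regulator, near Cfd, Xab2 and Pet100 (27.6), of DNA repair and of cytochrome c oxidase assembly, near Retn, and Blcap (16.1) near Nnat. The 28 summits of the Cfd locus included 11 nearest to Arid3a and 5 nearest to Ptbp1, and 2 nearest to Cfd itself. By nearest TSS the shared genes had 2 to 7 summits (Cfd 2, Adipoq 3, Fabp4 7) and the white-selective genes 1 to 2, so that the classes met at 2. In the Fabp4 locus none of the 13 summits lay at the promoters of the 3 neighbours, Pmp2, Fabp9 and Fabp12.

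For the genes without a promoter summit, the highest summit of the locus away from other promoters is shown, whichever gene it is nearest to. The Retn one lay 46388 bp upstream of Retn with a score of 6.53 and was nearest to the TSS of Xab2 (11914 bp), and the Tnfrsf9 one was nearest to that of Errfi1 (16677 bp). Those of Lep and Nnat were nearest to the gene's own TSS. Windows hold 50 bp on either side of the summit in the sense of the gene, all on the plus strand. Lep is at chr6:29032227-29032327, Retn at chr8:3609332-3609432, Nnat at chr2:157513747-157513847 and Tnfrsf9 at chr4:150871697-150871797.
Lep locus: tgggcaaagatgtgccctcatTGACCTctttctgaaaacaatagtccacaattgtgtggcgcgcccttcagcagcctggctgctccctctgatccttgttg
Retn locus: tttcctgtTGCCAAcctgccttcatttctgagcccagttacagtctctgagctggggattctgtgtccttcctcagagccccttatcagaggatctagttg
Nnat locus: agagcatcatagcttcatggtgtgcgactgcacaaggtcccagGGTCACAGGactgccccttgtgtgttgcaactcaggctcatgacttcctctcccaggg
Tnfrsf9 locus: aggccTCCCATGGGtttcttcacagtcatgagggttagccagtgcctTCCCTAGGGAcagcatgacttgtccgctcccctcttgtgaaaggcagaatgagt
The Lep window held the nuclear receptor half-site, the Retn window the NFI half-site, the Nnat window the DR1 core and the Tnfrsf9 window the EBF letters.

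Lep (chr6:29060221-29073876, plus strand) had 2 summits, both nearest to its own TSS. They lay 27944 bp upstream with a score of 12.2 and 28200 bp downstream with a score of 7.05, and there was none in the gene body. The upstream summit, at 29032277, lay 1323 bp downstream of the start of Lnclep, a predicted long noncoding RNA (chr6:29030954-29039527, plus strand), and in an exon of it. Lnclep is known for its position upstream of the leptin gene and its expression in fat. The score of the summit ranked 5921 of 32173, above that of the promoter summits of Adipoq, Cfd and Agt.

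Retn (chr8:3655770-3659818, plus strand) had 8 summits in its locus, of which 4 were at promoters of other genes. The single summit nearest to its own TSS lay 9792 bp upstream, with a score of 2.92. Its neighbour Fcor, named as a corepressor of FOXO1 in fat, had a promoter summit with a score of 19.1, at 16478 bp from the TSS of Retn. Agt had a further summit 49066 bp from its TSS, at the promoter of Cog2 with a score of 6.02, and one 19863 bp upstream, in an intron of Capn9, with a score of 13.4. Nnat (chr2:157560078-157562525, plus strand) had its remaining summit 46281 bp upstream, with a score of 4.16. Nrip1 had its promoter summit and no other over a gene body of 86.4 kb and the flanks.

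The beige-selective genes had no promoter summit. Tmem26 (chr10:68723746-68782654, plus strand) had no summit in its locus, as did 42.3% of genes without a neighbour. The nearest ones were 440520 bp upstream, nearest to Arid5b with a score of 8.12, and 462595 bp downstream, nearest to Rhobtb1 with a score of 3.75. Its promoter had a GC content of 60.7%, and 68.2% of genes in the range of 60% to 65% had a promoter summit. Tnfrsf9 (chr4:150920155-150946102, plus strand) had 4 summits in its locus, all upstream and none nearest to its own TSS. They lay 5514 bp upstream with a score of 12.2, 10261 bp upstream at the promoter of Park7 with 19.4, 21558 bp upstream with 3.2 and 48408 bp upstream, nearest to Errfi1, with 23.1.

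Longer lists of the same kinds of genes were set beside these. They, and the brown-selective list that follows, were chosen with earlier results of these data known and are not independent support. Of 14 further general adipocyte genes, 14 had a promoter summit, 13 of them with a score of at least 10, against 45.2% and 23.5% of all genes, and their median promoter score was 24.2. The highest were those of Acsl1 (90.5), an acyl-CoA synthetase, and Lipe (84.8), hormone-sensitive lipase, and the lowest that of Cd36 (4.16), a fatty acid transporter. Adipoq (6.02) lay below 13 of these 14 genes, Cfd (2.09) lay below all 14, and Fabp4 (35.0) lay among them. Of 8 further white-selective genes 2 had a promoter summit, Psat1 (7.58), of serine synthesis, and Rarres2 (2.15), which encodes chemerin. Igfbp3, Dpt, Tcf21, Hoxc8, Hoxc9 and Hoxc10 had none. The Hoxc genes are neighbours in the same cluster, so that their counts are not independent. Of 6 further beige genes 1 had one, Cd40 (2.15), and Tbx1, Ear2, Klhl13, Cited1 and Sp100 had none. The median number of summits per locus was 19 for the general genes, 1.0 for the white-selective and 1.5 for the beige ones, against 2.0 over all genes.

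Brown-selective genes were set beside these as the program of the tissue. Of 10 such genes 8 had a promoter summit, with a median promoter score of 11.1 and a median of 9.5 summits per locus. Cidea (61.5), a lipid droplet protein, and Ucp1 (33.7), the uncoupling protein, scored highest, Dio2 and Cox8b lowest (6.02 each), and the developmental factors Lhx8 and Zic1 had none. Fabp4 (35.0) was near Ucp1, and Adipoq had the same score as Dio2 and Cox8b. For the tissue label, 6 of 6 brown adipocyte markers had a promoter summit, but they are 6 of the 10 genes just described and leave out Lhx8 and Zic1. A promoter summit, which 45.2% of all genes had, was also found for 2 of 6 endothelial markers, 1 of 6 each of macrophage, T cell, fat progenitor, skeletal muscle and hepatocyte markers, and 0 of 6 neuron markers. The part of other cell types in the summits described here was not tested.

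**Figure D4:**
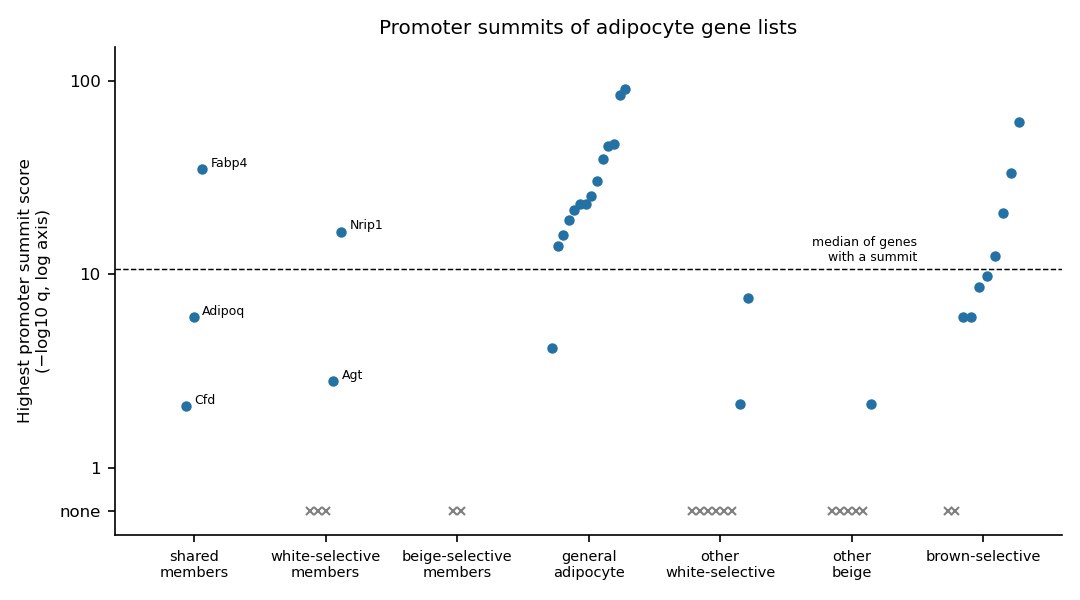
Highest promoter summit score of each gene (y axis, −log10 q on a log axis) in the 3 classes and 4 further lists, 1 point per gene, with crosses at "none" for genes without a promoter summit. The dashed line is the median of all genes with one (10.7), and 13 of 14 general adipocyte genes lie above it. White-selective genes other than Nrip1 lie below it or have none. Among the shared genes, Adipoq and Cfd also lie below it.

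Sequence around the 68 summits was searched on both strands, within 100 bp of the summit, for 15 patterns. They were AGGTCA for the nuclear receptor half-site, GGTCANAGG for the DR1 core, TCAAGGTCA for ERR, TTGCNNAA for C/EBP, CCCNNGGGA for EBF, TTGGCA for the NFI half-site, ACANNNTGT for the glucocorticoid and androgen receptors, TGACGTCA for CRE, TGANTCA for AP-1, CCGGAAG for ETS, CGCNTGCG for NRF1, GGGCGG for SP/KLF, CCACNAGGG for CTCF, TATAAA for the TATA box and CACGTG for the E-box. The ERR pattern contains the half-site, and the DR1 core shares letters with it. The half-site was at 12 of 68 summits (17.6%), against 15.2% of all 32173 summits. The C/EBP pattern was at 5 (7.35%), against 10.9%, and the EBF pattern at 6 (8.82%), against 9.93%. The SP/KLF pattern was at 11 (16.2%), against 20.6%, and the NFI half-site at 9 (13.2%), against 10.9%. The DR1 core was at 2 (2.94%, against 1.86%), at the Nnat summit shown and at a summit 47607 bp downstream of Cfd. The ERR pattern was at 0 of 68, against 0.454% of summits, which amounts to less than 1 summit in 68. The remaining 8 patterns were at 1 to 4 of the 68 summits each, the TATA letters at 4 (5.88%, against 3.29% of all summits) being the most frequent. These counts are too small to rank the patterns. The C/EBP letters were at the summit 1961 bp upstream of Adipoq, at the one 3499 bp downstream of the TSS of Fabp4, at the one 35161 bp downstream of that of Cfd, at the summit 9792 bp upstream of Retn and at the one 19863 bp upstream of Agt.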

How the data were processed

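ATAC-seq libraries of 2 WT and 2 Dot1L-BKO mice were used. RNA-seq libraries were not analysed here. Per the labels, the authors' tools included cutadapt 1.2.1, BWA and MACS2 2.1.1 (build mm10). The authors deposited a summit position for each peak with its MACS2 q-value as −log10, as 1 list with no values per library, after the authors' cutoffs on q-value and fold enrichment. MACS2 was run in its ATAC mode within Partek Flow, and further handling of the transposase offset, duplicates and mitochondrial reads is not given in the sources used here, and depth per library is unknown.

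Summits were placed relative to curated RefSeq mRNAs of GRCm38 on chromosomes 1 to 19, X and Y (25999 TSSs). Placement and motif search were tested on simulated data. Backgrounds are counts over all genes or summits. No test was made, because the list has 1 value per peak. Members and lists were chosen with earlier results of these data known. All 10 genes are named, with the promoter summit and the highest summit of each locus. From each further list of adipocyte genes those without a promoter summit, the 2 highest and the lowest are named. Markers of cell types are given by counts. Noncoding RNAs, the mismatch search for DR1 and the upstream and downstream windows of Fabp4 were added after the values were seen. Alternatives changed score minimum, windows, merging, transcripts, the gene a summit is given to, and classes. Python 3.11.15, numpy 2.4.6, pandas 2.3.3, pysam 0.24.0 and matplotlib 3.10.9 were used.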

Additional observations from a re-analysis of the deposited data

How the results depend on the processing

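No paired analysis was possible because single libraries have no scores of their own in the list, and for that reason no replicate could be left out. Under each of the 15 alternatives that were run, the count and median of the shared genes stayed above those of the white-selective genes wherever both were computed, except that with a score of at least 10 each class had 1 gene with a promoter summit.

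With a score of at least 5, 3 members had a promoter summit, 1 of them white-selective, the loci held 32 summits and the shared median was 5. With a score of at least 10, 2 members had a promoter summit, 1 shared and 1 white-selective, and the loci held 22 summits, with medians of 3 for shared and 1 for white-selective genes. With Nrip1 left out, 1 white-selective gene had a promoter summit. Loci of 10 kb held 21 summits with medians of 4 and 1, loci of 25 kb held 34 with a shared median of 8, and loci of 100 kb held 106. Counting summits nearest to the gene's own TSS left 19, with medians of 3 and 1. Of 90 counts for the 9 loci with a summit under these alternatives, 61 were within 1.5 times the reported count and 29 were not. The unknown depth and the unknown background of the caller limit what the absence of a summit can show.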

Other observations

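The median score of the 68 summits was 4.61 against 5.0 over all summits, and 22 of 68 (32.4%) had a score of at least 10 against 23.5%. By class, 12 of the 46 summits of shared loci (26.1%), 7 of the 18 of white-selective loci (38.9%) and 3 of the 4 of Tnfrsf9 (75%) did. By annotation, 37 of the 68 were intergenic, 22 in introns and 9 in exons of RefSeq mRNAs. The same split over all summits is not given here, so that these counts have no background beside them. The median GC content within 100 bp was 55.2%, against 56.2% over all summits.

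A complete DR1 with up to 2 mismatches in 12 letters was at 2 of 68 summits (2.94%), against 4.07% of all summits. They were the one 8145 bp upstream of Fabp4 and the one 7069 bp upstream of Nnat. With up to 3 mismatches the shares were 26.5% and 21.9%.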
